A study of Mus musculus with 12 samples.

Results

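The Krüppel-like factor (KLF) genes were followed across all 12 RNA-seq libraries of H9c2 cells, a line described by the study as rat cardiomyoblasts and labelled as mouse myoblasts, whose reads were aligned to the mouse genome. The 10 members, Klf2, Klf3, Klf4, Klf5, Klf6, Klf7, Klf9, Klf10, Klf11 and Klf13, were chosen by gene symbol among the 54345 genes of the deposited table, and all 10 were among the 25044 genes that were tested, those detected in 3 or more libraries. The choice was made with earlier results of these data known, so counts of members beside the share of all genes are descriptions only. FPKM is the number of fragments per kilobase of gene length and per unit of library size, so levels of different genes are compared per length. The 4 groups of 3 libraries were untreated cells (Unt), cells given the anthracycline doxorubicin (DOX), cells given DOX with dexrazoxane, the clinical cardioprotectant (D_DXZ), and cells given DOX with magnesium hexacyanoferrate nanocatalysts (D_MgHCF). RNA was collected after 6 h, the doses used for the sequenced cells were not named in the sources used here, and no group received dexrazoxane or the nanocatalysts without DOX. H9c2 is a single established line, and nothing in the labels says that the 3 libraries of a group came from separate cultures, so p-values measure the spread between these libraries, which may be technical.

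KLF proteins are transcription factors with C-terminal zinc fingers that bind GC-rich and CACCC-type elements near promoters. They are grouped by the partner that their N-terminal part recruits: Klf3 binds the corepressor CtBP, Klf2, Klf4, Klf5, Klf6 and Klf7 bind acetyltransferases, and Klf9, Klf10, Klf11 and Klf13 bind the corepressor Sin3. Many are early-response genes with short-lived transcripts, and in the heart and vessels they take part in stress responses, lipid metabolism and the smooth muscle phenotype.

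The libraries held between 16626514 and 19365119 reads on genes. The D_MgHCF libraries stood apart from the rest, with 23368 to 25456 genes above 0 against 18530 to 20660 in the other 9 libraries, and their pairwise correlations over genes were 0.942 to 0.984, whereas those of the other groups were at least 0.989. Of 8 myoblast and muscle markers, Myod1, Myf5, Myog and Cav3 were at or near 0 in every library, with at most 5 reads in the 3 libraries of a group, while Vim, which many cell types express, had a mean of 243 FPKM in Unt and Des one of 1.46 FPKM. Tnnt2 and Acta1 reached group means of 0.903 and 1.65 FPKM. Among the cardiac markers, Nkx2-5, Myh6 and Actc1 stayed near 0, at no more than 0.321, 0.136 and 0.153 FPKM in any library. Gata4 had a mean of 10.3 FPKM in Unt. The defining markers of leukocytes (Ptprc) and epithelium (Epcam) were also near 0, at a mean of at most 0.00676 and 0.129 FPKM, and that of endothelium (Pecam1) reached a mean of 0.474 FPKM in D_MgHCF. In bulk RNA, fewer cells of a type and less RNA per cell cannot be told apart.

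The promoter windows of 4 members are printed because these genes mark the range of responses described below, from the strongest falls under DOX (Klf2, Klf4 and Klf6) to a rise over untreated cells under D_MgHCF (Klf9). Each is the 250 bases before the RefSeq start of the mouse gene on the GRCm38.p6 build, on the gene's strand and 5′ to 3′, while the cells are described as rat. Capitals mark the CACCC element, the GC-box core GGGCGG and the CCAAT box on either strand and, in Klf2, the site named after the muscle factor MEF2, which may overlap one another.
Klf2, chr8:72318812-72319061, plus strand: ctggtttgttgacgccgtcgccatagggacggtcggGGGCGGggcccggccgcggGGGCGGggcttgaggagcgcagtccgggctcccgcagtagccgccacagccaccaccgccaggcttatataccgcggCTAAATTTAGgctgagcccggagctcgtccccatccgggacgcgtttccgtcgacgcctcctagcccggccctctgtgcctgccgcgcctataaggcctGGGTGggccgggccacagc
Klf4, chr4:55532476-55532725, minus strand: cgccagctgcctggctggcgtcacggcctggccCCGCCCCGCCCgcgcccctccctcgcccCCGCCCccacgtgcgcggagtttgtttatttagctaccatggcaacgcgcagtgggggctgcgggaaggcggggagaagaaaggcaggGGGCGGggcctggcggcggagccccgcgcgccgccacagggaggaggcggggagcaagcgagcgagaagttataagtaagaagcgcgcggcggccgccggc
Klf6, chr13:5861239-5861488, plus strand: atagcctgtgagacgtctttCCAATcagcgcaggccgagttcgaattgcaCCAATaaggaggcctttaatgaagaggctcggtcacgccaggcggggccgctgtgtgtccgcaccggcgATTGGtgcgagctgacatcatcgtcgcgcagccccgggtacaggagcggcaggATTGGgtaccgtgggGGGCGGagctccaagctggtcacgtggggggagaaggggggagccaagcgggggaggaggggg
Klf9, chr19:23140976-23141225, plus strand: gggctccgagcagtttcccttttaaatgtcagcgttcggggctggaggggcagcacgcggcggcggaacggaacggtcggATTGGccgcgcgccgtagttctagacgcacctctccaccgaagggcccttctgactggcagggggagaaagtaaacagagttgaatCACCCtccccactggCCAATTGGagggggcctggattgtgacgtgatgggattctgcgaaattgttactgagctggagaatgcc

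Windows were matched for 8 of the 10 members, with none for Klf5 and Klf10. GGGCGG was found in 7 of the 8 windows and in 32.7% of all 32851 windows. CACCC, the element for which the family is known, was found in 5 of the 8 and in 52.0% of all windows, and CCAAT in 4 of the 8 and in 33.8%. The MEF2 site, 118 bases before the start in Klf2, was found in 1 of the 8 and in 2.92% of all windows. The windows held 59.2% to 78.4% G and C against a median of 52.4% over all windows. TATAAA, found in 12.4% of all windows, the CRE palindrome TGACGTCA (1.55%) and the CArG box of serum response factor (1.47%) were found in none of the 8. TGACG, the start of the CRE palindrome, was found in 4 of the 8 and in 17.8% of all windows. A match is a string of letters and no evidence of binding.

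The first question was which members DOX changed. Klf2, Klf3, Klf4, Klf6, Klf7, Klf9 and Klf13 fell, which made 7 of 10 members against 19.9% of all genes tested that were called lower, and no member rose. In the deposited scaling all 10 members lay below Unt without overlap between libraries, as did 26.6% of all genes tested, although the estimates of Klf5 and Klf10 turned positive after quantile normalization. The median log2 fold change of the members was -1.02 on the log2(FPKM + 1) scale, beside 0 over all genes tested. The falls were deepest among the acetyltransferase-binding members Klf2, Klf4 and Klf6, whose mean FPKM under DOX was 4.69%, 8.34% and 18.5% of Unt. Calls are from limma at a Benjamini-Hochberg adjusted p under 0.05 over all genes tested. Genes near 0 are part of that set, in which 9982 coding genes had a mean of at least 1 FPKM. Shares over genes expressed at the level of the members were not computed, here or below.

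Klf4, the factor best known for reprogramming somatic cells and a regulator of smooth muscle identity (ENSMUSG00000003032, chr4:55527143-55532466 on GRCm38), was the most abundant member per length in untreated cells. Its FPKM was 25.6, 28.7 and 27.5 in Unt and 3.69, 1.89 and 1.25 in DOX. The highest DOX library was thus far under the lowest Unt library. The log2 fold change was -3.18 (SE 0.31, limma adjusted p = 2.67e-05). Klf2, which in endothelium responds to blood flow through the kinase Mapk7 and MEF2 factors, was almost lost (ENSMUSG00000055148, chr8:72319033-72321656). It was at 4.02, 3.75 and 4.25 FPKM in Unt and at 0.428, 0.0422 and 0.0936 FPKM in DOX. The DOX values rest on 12, 1 and 2 reads against 166 to 192 reads in Unt, and the last 2 are within the 3 reads that a count of 0 allows. The log2 fold change was -2.09 (SE 0.22, limma adjusted p = 3.52e-05), a scale that understates the change of a gene this low.

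Klf6, a gene induced by tissue injury (ENSMUSG00000000078, chr13:5861482-5870394), was at 12.9, 14.1 and 14.3 FPKM in Unt and at 2.84, 2.29 and 2.52 FPKM in DOX, a log2 fold change of -2.06 (SE 0.19, limma adjusted p = 1.79e-05). Klf7, known for its role in neurite outgrowth (ENSMUSG00000025959, chr1:64029447-64122282), was at 2.51, 2.14 and 2.35 FPKM in Unt and at 0.964, 0.901 and 0.861 FPKM in DOX. Its log2 fold change was -0.80 (SE 0.18, limma adjusted p = 0.00376), and the call was lost after quantile normalization at an adjusted p of 0.0549. Gm26649 overlaps Klf7 by 3465 bases on the opposite strand, with a transcript 99.9% identical over 2826 bases, and is listed at 0 in all 12 libraries, so that reads from it could be counted under Klf7 if strand was not used. Klf5, which promotes epithelial proliferation and regulates cardiac lipid metabolism (ENSMUSG00000005148, chr14:99298691-99315036), differed least. It was at 2.79, 2.59 and 2.91 FPKM in Unt and at 2.50, 2.22 and 1.83 FPKM in DOX, with a log2 fold change of -0.25, a 95% interval of -0.53 to 0.03 and a limma adjusted p of 0.163. Klf5 was called lower with TPM (-1.48, limma adjusted p = 5.39e-05) and with FPKM over summed reads (-0.91, limma adjusted p = 0.000350), while its sign turned after quantile normalization.

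The CtBP-binding member Klf3, a repressor in erythroid and fat cells (ENSMUSG00000029178, chr5:64803388-64832901), was at 4.58, 4.05 and 4.16 FPKM in Unt and at 1.40, 1.47 and 1.23 FPKM in DOX, a log2 fold change of -1.15 (SE 0.14, limma adjusted p = 7.91e-05). Its value is uncertain at the margin, because Gm20033 overlaps it by 730 bases on the opposite strand, with a transcript identical over 405 bases, and C230096K16Rik by 1722 bases on the same strand. Gm20033 had a mean of 0.148 FPKM in Unt and 0.793 FPKM in DOX, and whether counting used strand was not stated. Without strand, reads of a gene and its antisense partner cannot be told apart.

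Among the Sin3-binding members, Klf13, a partner of Gata4 in heart development (ENSMUSG00000052040, chr7:63886351-63938915), fell most. It was at 4.55, 4.77 and 4.62 FPKM in Unt and at 1.79, 1.26 and 1.38 FPKM in DOX, with a log2 fold change of -1.19 (SE 0.13, limma adjusted p = 5.00e-05). Gata4 itself, which is no member, had a mean of 10.3 FPKM in Unt and 3.35 FPKM in DOX. Klf9, a target of glucocorticoid and thyroid hormone receptors (ENSMUSG00000033863, chr19:23141226-23166911), was at 6.60, 6.75 and 6.32 FPKM in Unt and at 4.18, 2.77 and 2.52 FPKM in DOX. Its log2 fold change was -0.88 (SE 0.22, limma adjusted p = 0.00731), and the call was lost after quantile normalization at an adjusted p of 0.180.

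Klf10 and Klf11 are related genes induced early by TGF-beta, and neither passed the test. Klf10 (ENSMUSG00000037465, chr15:38291463-38300706) was at 4.39, 4.91 and 4.47 FPKM in Unt and at 3.83, 2.95 and 2.92 FPKM in DOX, a log2 fold change of -0.41 with a limma adjusted p of 0.0727. Klf11 (ENSMUSG00000020653, chr12:24651274-24662789) was at 2.59, 2.38 and 2.40 FPKM in Unt and at 1.88, 1.62 and 1.16 FPKM in DOX, a log2 fold change of -0.45 with a limma adjusted p of 0.0659. Both intervals lay below 0, at -0.77 to -0.05 for Klf10 and -0.83 to -0.06 for Klf11, and each gene was called lower in 8 of 22 alternative settings. Leaving out DOX replicate 1, D_DXZ replicate 2 or D_MgHCF replicate 3 was enough for Klf10, and leaving out D_MgHCF replicate 1 or D_MgHCF replicate 3 for Klf11.

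**Figure D1:**
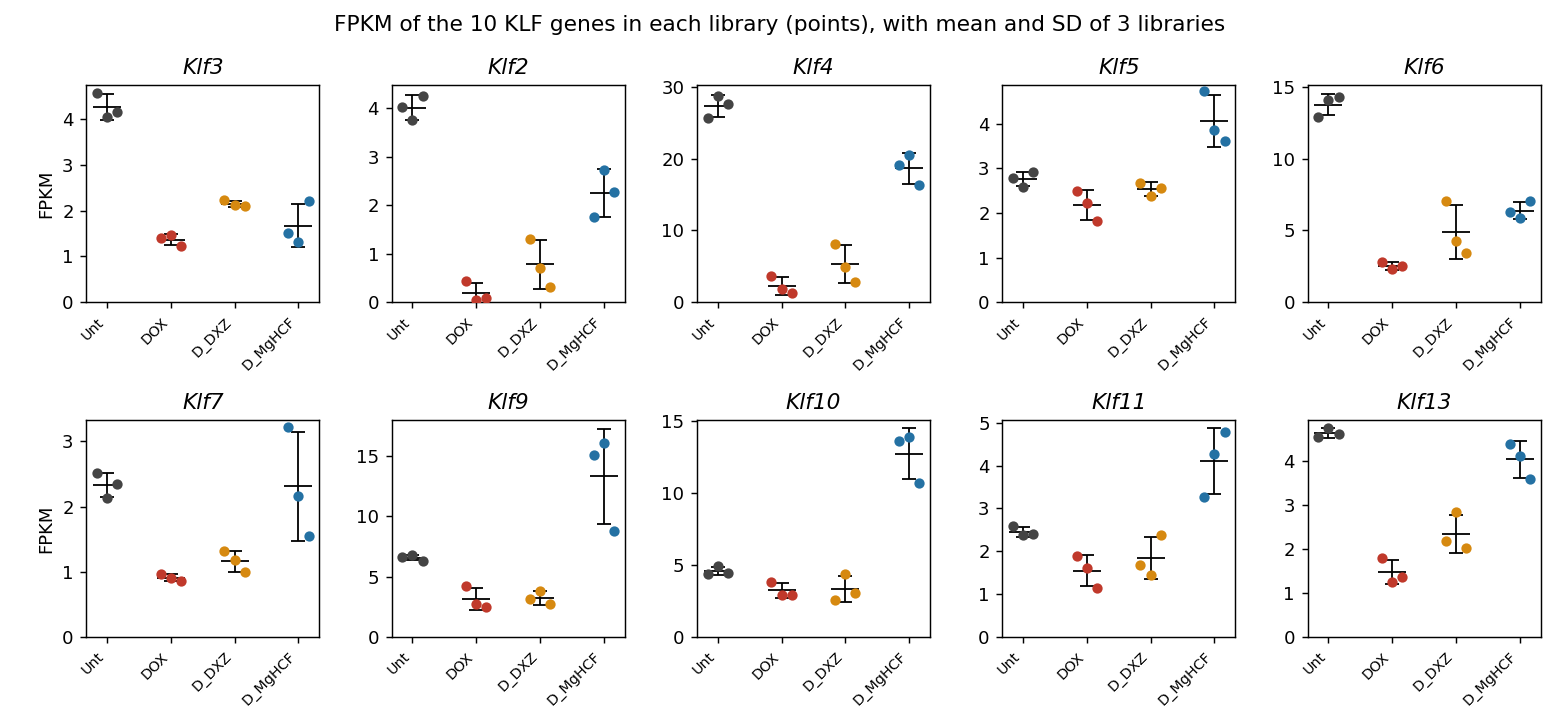
FPKM (y axis, linear, from 0, a separate scale for each gene) of the 10 KLF genes in the 4 groups (x axis), with each point a library and each bar the mean ± SD of 3 libraries. Klf4 drops from 25.6 to 28.7 FPKM in Unt to 1.25 to 3.69 FPKM in DOX, whereas Klf9 and Klf10 stand highest in D_MgHCF.

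How the libraries are scaled bears on every value. With TPM, which fixes the total of each library, the median log2 fold change of DOX against Unt over genes that reached 1 FPKM in 3 libraries moved from 0.02 to -1.18, and with FPKM over the summed reads it moved to -0.68. Over all genes the calls moved from 4649 higher and 4973 lower to 1111 higher and 10227 lower with TPM. With TPM and with FPKM over summed reads, 10 of 10 members were called lower. With FPKM over summed reads, 8303 of the 25044 genes tested were called lower. Measured from the median gene of each scaling, the members' median was -1.04 with the deposited FPKM, -1.23 with TPM, -1.03 with FPKM over summed reads and -0.61 after quantile normalization. All 10 members lay below the median gene in each of these except quantile normalization, where 8 did. The same distance was -1.53 with voom on the recovered reads, where all 10 lay below. Voom was given the library scaling of the deposited FPKM, so this value is not from another scaling.

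**Figure D2:**
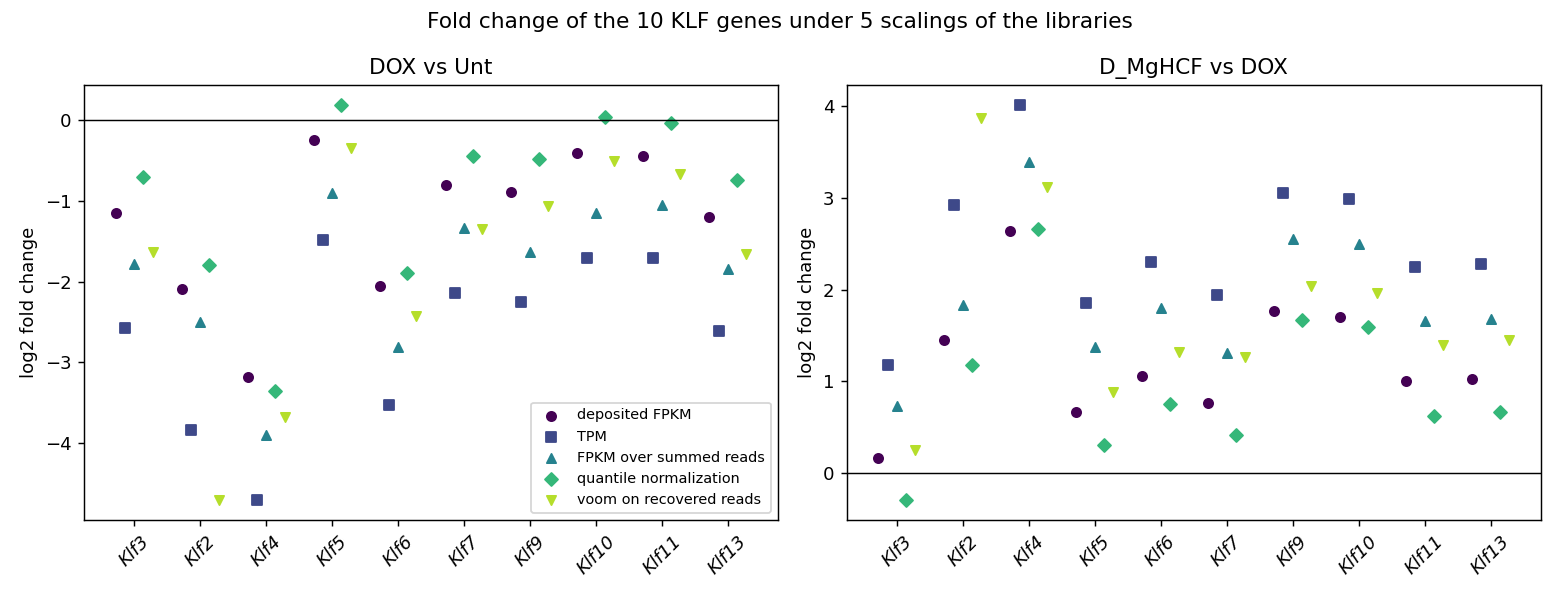
Log2 fold change (y axis) of each KLF gene (x axis) for DOX against Unt on the left and D_MgHCF against DOX on the right, with a marker for each of 5 ways of processing the libraries and the line at 0 for no change. Voom, which is 1 of the 5, keeps the library scaling of the deposited FPKM. The order of the genes is similar while the level shifts, and Klf5 and Klf10 under DOX and Klf3 under D_MgHCF cross 0 after quantile normalization.

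Dexrazoxane was compared with DOX to ask whether the clinical agent changed the members in DOX-treated cells. With limma, 0 of 10 members passed, as did 0% of all genes tested, and the lowest adjusted p over all genes was 0.0870. Voom on the recovered reads also called 0 members. All 10 estimates were above 0, and at an unadjusted p under 0.05 there were 5 members, Klf2, Klf3, Klf4, Klf6 and Klf13, all higher, against 4.56% of all genes tested. That count was 3 without DOX replicate 3, 3 without D_DXZ replicate 1 and 3 when only the DOX and D_DXZ libraries were fitted. The signs of Klf9 and Klf10 turned after quantile normalization and that of Klf10 with voom.

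Klf6 had the lowest unadjusted p of the members, 0.00387. It was at 7.04, 4.24 and 3.44 FPKM in D_DXZ, all above the 2.29 to 2.84 FPKM of DOX, and the log2 difference was 0.69 (SE 0.19, limma adjusted p = 0.316). Klf3 lay at 2.23, 2.13 and 2.10 FPKM and Klf13 at 2.20, 2.85 and 2.03 FPKM in D_DXZ, again without overlap with DOX. Klf7 was the fourth member without overlap, which was found for 7.66% of all genes tested. Klf4, at 8.09, 4.88 and 2.82 FPKM, and Klf2, at 1.31, 0.702 and 0.324 FPKM, overlapped with DOX. D_DXZ replicate 1 was the highest of its group for Klf2, Klf3, Klf4, Klf5, Klf6 and Klf7. The log2 difference of Klf4 was 0.91 with a 95% interval of 0.22 to 1.61 and a limma adjusted p of 0.424.

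Against untreated cells, D_DXZ left Klf2, Klf3, Klf4, Klf6, Klf7, Klf9 and Klf13 lower, 7 of 10 members against 18% of all genes tested. The mean FPKM of Klf4 in D_DXZ was 19.3% of Unt, with a log2 fold change of -2.26 (SE 0.31, limma adjusted p = 0.000328), and that of Klf2 was 19.4% of Unt. Klf5, Klf10 and Klf11 did not pass, with limma adjusted p-values of 0.710, 0.0949 and 0.242, and Klf10 passed without D_DXZ replicate 2. The call of Klf7 had an adjusted p of 0.0179 and was lost without Unt replicate 1, Unt replicate 3 or D_DXZ replicate 3. The count depends on the scaling, with 10 of 10 members called lower with TPM and with FPKM over summed reads and 4 after quantile normalization. Of the 25044 genes tested, 10083, 7946 and 3661 were called lower in these settings, in that order. With TPM the log2 fold changes of Klf5, Klf10 and Klf11 were -1.16, -1.54 and -1.40 (limma adjusted p = 0.000351, 8.87e-05 and 0.00136). The DOX and D_DXZ comparisons share the Unt libraries, so that their likeness is no separate result.

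The nanocatalysts were compared with DOX alone to ask which members they changed in treated cells. Klf2, Klf4, Klf5, Klf6, Klf7, Klf9, Klf10, Klf11 and Klf13 rose, 9 of 10 members against 31.4% of all genes tested, and none fell. These 9 also had no overlap between the D_MgHCF and DOX libraries, against 32.5% of all genes tested. The median log2 fold change of the members was 1.04, beside 0.07 over all genes tested. This comparison shares the DOX libraries with that of DOX against Unt. A low DOX value therefore moves both in opposite directions. With TPM the median gene of at least 1 FPKM moved from -0.02 to 1.02, the calls over all genes moved from 7863 higher and 5027 lower to 13504 higher and 1691 lower, and the members' median above the median gene was 1.27 in place of 1.06.

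Klf4 was at 19.1, 20.5 and 16.2 FPKM in D_MgHCF, well above the 1.25 to 3.69 FPKM of DOX, with a log2 fold change of 2.64 (SE 0.31, limma adjusted p = 6.59e-05). Klf2 was at 1.75, 2.72 and 2.27 FPKM, from 68 to 128 reads, with a log2 fold change of 1.45 (SE 0.22, limma adjusted p = 0.000283). Klf6 reached 6.26, 5.84 and 7.03 FPKM, with a log2 fold change of 1.06 (SE 0.19, limma adjusted p = 0.000856). These genes, which had fallen most under DOX, lay between DOX and Unt in every D_MgHCF library.

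Klf10 had the lowest adjusted p of the members. It was at 13.6, 13.9 and 10.7 FPKM in D_MgHCF against 2.92 to 3.83 FPKM in DOX, a log2 fold change of 1.70 (SE 0.16, limma adjusted p = 1.85e-05). Klf9 was at 15.0, 16.1 and 8.80 FPKM, with a log2 fold change of 1.76 (SE 0.22, limma adjusted p = 8.28e-05). Its D_MgHCF replicate 3 was far below the other 2 and still above all DOX libraries. Klf11 was at 3.27, 4.28 and 4.79 FPKM, with a log2 fold change of 1.00 (SE 0.17, limma adjusted p = 0.000745). Klf13 was at 4.41, 4.13 and 3.60 FPKM, with a log2 fold change of 1.03 (SE 0.13, limma adjusted p = 0.000110), and its partner Gata4 had a mean of 19.2 FPKM in D_MgHCF.

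Klf5 was at 4.72, 3.87 and 3.60 FPKM in D_MgHCF and Klf7 at 3.21, 2.16 and 1.55 FPKM. Both rose over DOX, by 0.67 (SE 0.13, limma adjusted p = 0.00123) and 0.76 (SE 0.18, limma adjusted p = 0.00440) on the log2 scale. Both calls were lost after quantile normalization, at adjusted p-values of 0.0743 and 0.0592. Klf3 was the member that did not pass, at 1.51, 1.32 and 2.20 FPKM in D_MgHCF, with a log2 difference of 0.16, a 95% interval of -0.14 to 0.47 and a limma adjusted p of 0.345. The call of Klf3 turns on the scaling, since it was higher with TPM (log2 difference 1.18, limma adjusted p = 0.00140) and with FPKM over summed reads (0.74, limma adjusted p = 0.00326), and its sign turned after quantile normalization. Without D_MgHCF replicate 3 the difference was 0.03. D_MgHCF replicates 1 and 3 lay above all DOX libraries while replicate 2 lay among them, and the overlapping Gm20033 had a mean of 0.886 FPKM in D_MgHCF. The higher number of genes above 0 in the D_MgHCF libraries moved with these results, and its part in them was not tested.

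Set against untreated cells, D_MgHCF had members on both sides, with 5 estimates above the median gene and 5 below it. Klf5, Klf9, Klf10 and Klf11 were higher than in Unt, 4 of 10 against 24.3% of all genes tested, and Klf2, Klf3 and Klf6 were lower, 3 of 10 against 15.7%. Klf4, Klf7 and Klf13 did not pass. Of the 4 Sin3-binding members, 3 were thus higher than in Unt, and of the 5 acetyltransferase-binding members 1 was higher and 2 were lower. The difference between these classes was not tested. Of the 10 members, 2 were called higher and 2 lower with TPM, beside 6652 higher and 4814 lower of the 25044 genes tested. When only Unt and D_MgHCF were fitted, 2 were called higher and 4 lower. Klf5 and Klf11 lost their calls in both settings.

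Klf10 stood at 277% of its Unt mean, with a log2 fold change of 1.29 (SE 0.16, limma adjusted p = 0.000237), and Klf9 at 203%, with a log2 fold change of 0.88 (SE 0.22, limma adjusted p = 0.00968). Klf11 was at 167% of Unt (log2 fold change 0.55, SE 0.17, limma adjusted p = 0.0280) and Klf5 at 147% (log2 fold change 0.42, SE 0.13, limma adjusted p = 0.0224). Klf5 lost its call in 5 of 22 alternative settings, among them the fits without Unt replicate 1, Unt replicate 2 or D_MgHCF replicate 1 (limma adjusted p from 0.0609 to 0.0804). Klf11 lost it in 7, among them the fits without any single Unt library, D_MgHCF replicate 2 or D_MgHCF replicate 3 (limma adjusted p from 0.0556 to 0.0806). Klf3 remained at 39.3% of Unt (log2 fold change -0.99, SE 0.14, limma adjusted p = 0.000430) and Klf6 at 46.4% (log2 fold change -1.0, SE 0.19, limma adjusted p = 0.00218). The call of Klf2, at 56.1% of Unt, was the least secure, with a log2 fold change of -0.63 (SE 0.22, limma adjusted p = 0.0398) and a call lost in 12 of 22 alternative settings. Among these were the fits without any single Unt library, DOX replicate 2, DOX replicate 3, D_DXZ replicate 2 or D_MgHCF replicate 1 (limma adjusted p from 0.0507 to 0.120). Klf4 was at 68.2% of Unt (log2 difference -0.53, 95% interval -1.23 to 0.16, limma adjusted p = 0.199), and it passed at an adjusted p of 0.0224 when only Unt and D_MgHCF were fitted. The intervals were -0.43 to 0.35 for Klf7 and -0.46 to 0.13 for Klf13.

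**Figure D3:**
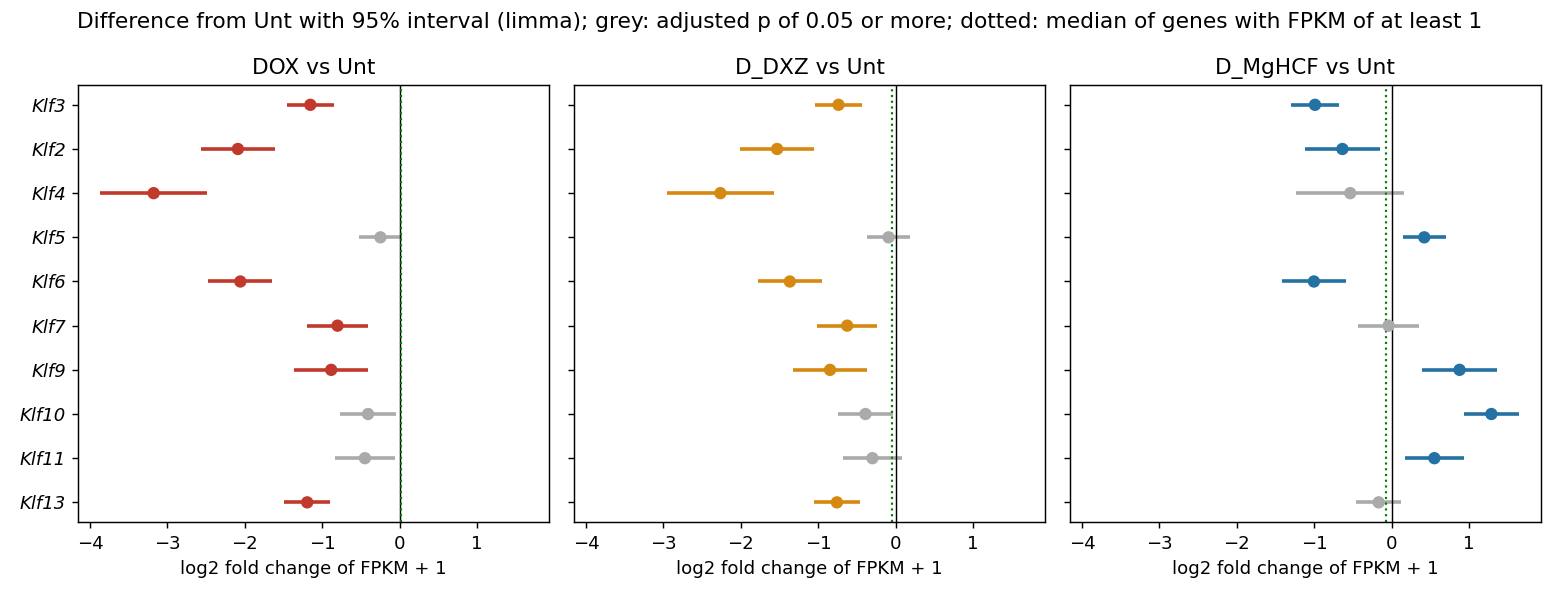
Log2 fold change of FPKM + 1 against Unt (x axis) for each KLF gene (y axis) in DOX, D_DXZ and D_MgHCF, with lines for the 95% interval from limma, grey where the adjusted p was 0.05 or more, and a dotted line at the median of genes with FPKM of at least 1. All 10 estimates are below 0 in the DOX and D_DXZ panels, and in the D_MgHCF panel Klf5, Klf9, Klf10 and Klf11 lie above 0 in colour and Klf2, Klf3 and Klf6 below it in colour.

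The nanocatalysts and dexrazoxane were also compared directly in DOX-treated cells. Klf2, Klf4, Klf5, Klf7, Klf9, Klf10, Klf11 and Klf13 were higher in D_MgHCF, 8 of 10 members against 29.4% of all genes tested, and none was lower with all libraries in the deposited scaling. The log2 difference was 1.73 for Klf4 (SE 0.31, limma adjusted p = 0.00116), 1.73 for Klf9 (SE 0.22, limma adjusted p = 0.000117) and 1.68 for Klf10 (SE 0.16, limma adjusted p = 2.57e-05). Klf6 differed by 0.36 with a 95% interval of -0.05 to 0.78 (limma adjusted p = 0.132), and it passed with TPM, with FPKM over summed reads and without D_DXZ replicate 1. Klf7 lost its call without D_DXZ replicate 3. When only D_MgHCF and D_DXZ were fitted, Klf5 and Klf7 both lost their calls (limma adjusted p = 0.0511 and 0.114). Klf3 was the member with an estimate below 0, at -0.25 (95% interval -0.56 to 0.06, limma adjusted p = 0.158). It was called lower without D_MgHCF replicate 3 (-0.39, limma adjusted p = 0.010) and after quantile normalization (-0.64, limma adjusted p = 0.0132), and its sign turned with TPM and with FPKM over summed reads. After quantile normalization 5 members passed, 4 of them higher and 1 lower, beside 4587 higher and 4840 lower of the 25044 genes tested.

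The order of the 4 groups fell into a few patterns. Klf2, Klf4, Klf6, Klf7 and Klf13 ran from Unt through D_MgHCF and D_DXZ to DOX, and Klf5, Klf9, Klf10 and Klf11 from D_MgHCF through Unt and D_DXZ to DOX. Klf3 ran from Unt through D_DXZ and D_MgHCF to DOX. DOX had the lowest mean of all 10 members, and for none of them did DOX and its neighbour D_DXZ, or D_MgHCF for Klf3, differ beyond their spread by the limma test. The other neighbours that missed the threshold were Unt and D_MgHCF for Klf4, Klf7 and Klf13, D_MgHCF and D_DXZ for Klf3 and Klf6, and Unt and D_DXZ for Klf5, Klf10 and Klf11.

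The rest of the family was read for the same groups. Of 7 other KLF genes 6 could be tested, with 3 lower and 0 higher in DOX than in Unt and 4 higher and 0 lower in D_MgHCF than in DOX. Of all genes tested, 19.9% were lower in the first comparison and 31.4% higher in the second. Both counts include Klf8, at no more than 0.189 FPKM in any library. The second also includes Klf17, on 2 to 3 reads in each D_MgHCF library and 0 elsewhere, within the 3 reads that a count of 0 allows. Klf16 followed the pattern of Klf13, at 13.7, 14.7 and 16.7 FPKM in Unt, 4.48, 3.15 and 2.88 FPKM in DOX and 11.4, 16.9 and 13.4 FPKM in D_MgHCF. Its log2 fold changes were -1.84 under DOX (SE 0.18, limma adjusted p = 2.30e-05) and 1.72 for D_MgHCF against DOX (SE 0.18, limma adjusted p = 2.73e-05). Klf15, a regulator of cardiac and hepatic metabolism, was at 0.997, 1.17 and 1.22 FPKM in Unt, at 0.0236, 0 and 0 FPKM in DOX and at 0.0171, 0.0704 and 0.219 FPKM in D_MgHCF. It thus fell under DOX (log2 fold change -1.08, SE 0.11, limma adjusted p = 2.71e-05) and its 3 D_MgHCF libraries were all below its Unt libraries. Klf1, the erythroid member of the family, was at 19.3, 13.5 and 1.38 FPKM in D_MgHCF against at most 0.947 FPKM elsewhere, a log2 fold change of 2.51 over DOX (SE 0.63, limma adjusted p = 0.00706) with one D_MgHCF library far under the others.

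The SP factors, the closest relatives of the KLF proteins, bind GC boxes as well. Of 9 genes 7 could be tested, with 3 lower and 0 higher in DOX than in Unt and 5 higher and 0 lower in D_MgHCF than in DOX. The shares of all genes tested were 19.9% lower and 31.4% higher. Among the genes called higher, Sp7 had a mean of 0.0666 FPKM in DOX and 0.996 FPKM in D_MgHCF, and Sp8 one of 0.327 and 1.56 FPKM. Sp1 was at 23.2, 22.6 and 22.7 FPKM in Unt, 7.54, 5.10 and 4.75 FPKM in DOX and 7.90, 13.4 and 28.3 FPKM in D_MgHCF. Its D_MgHCF libraries span from the DOX level to above Unt, and the log2 fold change over DOX was 1.22 (SE 0.36, limma adjusted p = 0.0163). Sp2 was at 9.28, 9.67 and 10.5 FPKM in Unt, 3.69, 2.17 and 1.70 FPKM in DOX and 8.25, 9.50 and 13.4 FPKM in D_MgHCF. Sp3 fell under DOX (log2 fold change -0.56, SE 0.12, limma adjusted p = 0.00309). It was not called for D_MgHCF against DOX (log2 difference -0.07, limma adjusted p = 0.640). Sp4, low elsewhere at no more than 1.07 FPKM, was at 7.45, 5.73 and 1.78 FPKM in D_MgHCF.

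**Figure D4:**
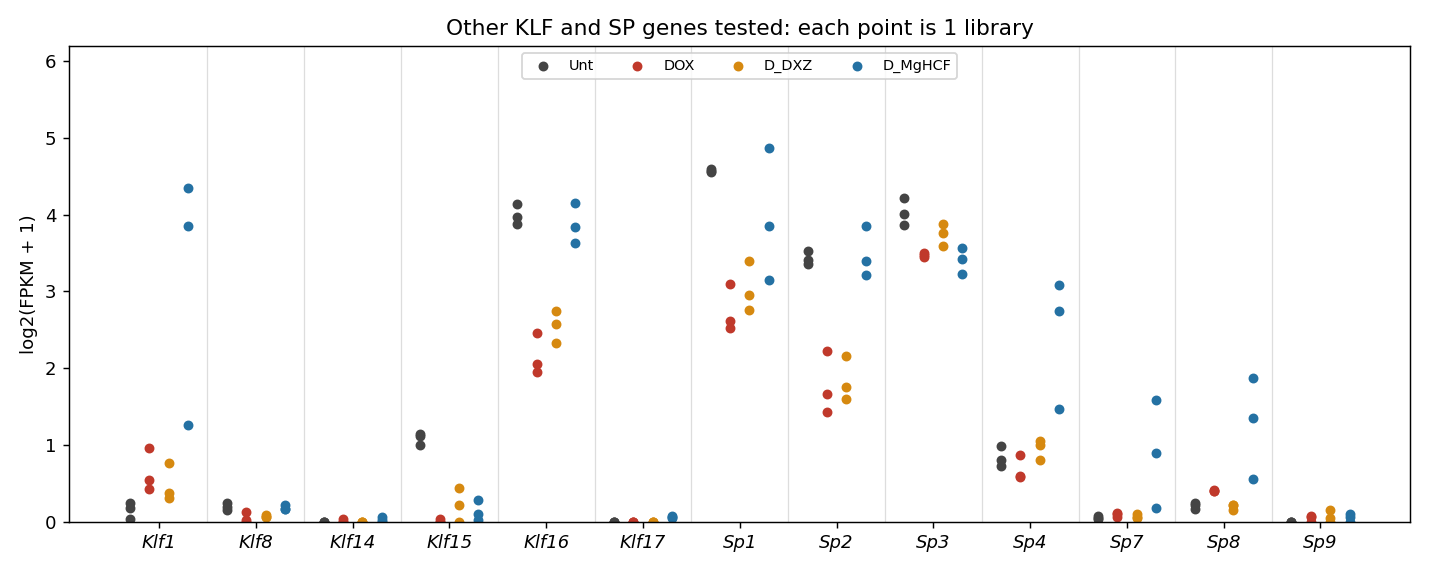
Log2(FPKM + 1) (y axis) of the other KLF and SP genes tested (x axis), with each point a library and colours for the 4 groups. Klf16, Sp1 and Sp2 are lower in the DOX and D_DXZ libraries than in Unt, and the D_MgHCF libraries are widely spread for Klf1, Sp1 and Sp4.

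Genes known to act with the family were counted by role, with log2 fold changes from the same limma fit. Of 10 cofactors, 6 rose and 3 fell under DOX, beside 18.6% and 19.9% of all genes tested. The corepressor scaffold Sin3a fell by 2.15 on the log2 scale (SE 0.21, limma adjusted p = 2.53e-05), as did the acetyltransferases Crebbp by 1.93 (SE 0.19, limma adjusted p = 2.67e-05) and Ep300 by 1.81 (SE 0.15, limma adjusted p = 1.44e-05), whereas the deacetylase Hdac1 rose by 1.92 (SE 0.12, limma adjusted p = 1.06e-05). Sin3b, the other Sin3 gene, and the acetyltransferase Kat2b rose by 1.27 and 1.28 under DOX (limma adjusted p = 0.00421 and 1.98e-05). For D_MgHCF against DOX, 3 cofactors rose and 5 fell, beside 31.4% and 20.1% of all genes tested. Sin3a was at 2.24 and Ctbp1, which encodes the corepressor bound by Klf3, at -2.28.

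Of 10 genes that act upstream of KLF genes, 8 fell and none rose under DOX, beside 19.9% and 18.6% of all genes tested. For D_MgHCF against DOX 8 rose and none fell, beside 31.4% and 20.1%. These were not all the same genes. Tgfbr2 fell under DOX (-1.01) and was not called for D_MgHCF against DOX (-0.11), while Tgfbr1 rose in the latter (1.68) without a called fall under DOX. Smad3, which carries the TGF-beta signal, was at -1.81 (SE 0.19, limma adjusted p = 4.21e-05) and 1.84 (SE 0.19, limma adjusted p = 3.29e-05). Map2k5 and Map3k3, kinases above Mapk7, were at -1.73 and -1.64 under DOX, and the glucocorticoid receptor gene Nr3c1 was at -1.37. Of 6 ubiquitin ligases known to act on KLF proteins 5 could be tested, with 4 lower and 1 higher under DOX and 3 higher and 1 lower for D_MgHCF against DOX. The shares of all genes tested were those given for the upstream genes. In the 2 comparisons Siah1a was at -2.67 and 1.57, Fbxw7 at -1.06 and 1.13 and Btrc at -0.94 and 1.03. Smurf1 was at -1.27 and 0.02, not called in the second, and Wwp1 at 0.74 and -1.18. Over all 54 related genes, of which 50 could be tested, 13 rose and 22 fell under DOX, beside 18.6% and 19.9% of all genes tested. With TPM 3 rose and 31 fell, beside 1111 higher and 10227 lower of the 25044 genes tested. For D_MgHCF against DOX 26 rose and 12 fell, beside 31.4% and 20.1%. With TPM 34 rose and 6 fell, beside 13504 higher and 1691 lower.

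Features of gene structure were not used to choose the members, and they varied among them. The members had a median of 4 exons in the GENCODE M21 annotation against 9 over 15811 coding genes tested, and a median span of 13931 bp against 22433 bp, with Klf3, Klf7, Klf9 and Klf13 above that value. Their 3′UTRs had a median of 2718.5 bases against 886, with Klf2 below that value, and held a median of 4 ATTTA pentamers, the core of the AU-rich elements of unstable transcripts, against 1. TATTTAT was found in the 3′UTRs of 6 of the 10 members, Klf2, Klf5, Klf6, Klf7, Klf10 and Klf11, and of 25.7% of the coding genes. Klf7 stood at one end with 18 ATTTA pentamers in 6266 bases, and Klf2, with 1 in 737 bases, and Klf4, with 1 in 982 bases, at the other. These figures describe the mouse annotation.

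For each member, the gene with the most similar profile was taken from 9982 coding genes with a mean FPKM of at least 1, as the highest Pearson r of log2(FPKM + 1) over the 12 libraries. These correlations are descriptions over points that share libraries and group differences. Klf4 was most like Glce (0.997), Klf2 like Nsmce3 (0.995), Klf6 like Crebbp (0.992), Klf3 like Enpp4 (0.990) and Klf7 like Mlh3 (0.987). Klf9 was most like Gucd1 (0.994), Klf10 like Nectin1 (0.989), Klf13 like Golph3l (0.979), Klf11 like Slc25a44 (0.969) and Klf5 like Cpeb4 (0.967). Between members, r was highest for Klf2 and Klf4 (0.981) and lowest for Klf3 and Klf10 (-0.15).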

How the data were processed

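The series holds RNA-seq of 12 H9c2 libraries. The submitters' processing notes name HISAT2 2.0.5 and the mouse GRCm38 build, while the counting program, its strand setting and the annotation release were not given in the sources used here. The authors deposited FPKM per gene with mouse Ensembl identifiers, gene lengths and coordinates. Multiplying FPKM by gene length recovered the reads on genes, with 100% of values whole within 0.01 read. The deposited FPKM contain a library scaling that was 0.647 to 1.43 times the summed reads.

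Log2(FPKM + 1) values were tested with limma 3.58.1 in R 4.3.3, trend included, in 1 fit over the 4 groups. Genes were called at a Benjamini-Hochberg adjusted p under 0.05 over the 25044 genes tested, and a fold change on this scale understates that of low genes. The script was tested on simulated data. The limit of 3 reads that a count of 0 allows covers counting error only. All 10 members are named, and of each related list up to 4 genes with the largest called changes in a comparison and a mean of at least 1 FPKM in the higher group. Sin3b, Kat2b, Klf8, Klf17, Sp7 and Tgfbr2 are named besides, outside that rule. The members and lists were chosen with earlier results of these data known. Promoter windows are from RefSeq (GRCm38.p6), gene structure is from GENCODE M21, and near-identical transcripts were searched with BLAST 2.17.0. Alternatives were another pseudocount, filter, threshold, scaling, group selection, voom, a replicate block and each library left out.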

Additional observations from a re-analysis of the deposited data

How the results depend on the processing

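The 60 log2 differences of members and their calls were set against 22 alternatives each. Another filter, the replicate block, a fit of only the compared groups and the unadjusted p leave the log2 difference as it is. So does leaving out a library of a group not compared, and in these settings only the call could change. Of 1320 values, 1222 kept their direction and side of the threshold, 41 lost a call, 39 gained one and 18 changed sign. Sign changes after quantile normalization were 0.193 for Klf5 and 0.0351 for Klf10 (DOX against Unt), 0.268 for Klf5 and 0.0265 for Klf11 (D_DXZ against Unt), -0.0325 for Klf9 and -0.0543 for Klf10 (D_DXZ against DOX) and -0.30 for Klf3 (D_MgHCF against DOX). Others were -0.000702 for Klf10 with voom (D_DXZ against DOX), and 0.55 with TPM and 0.26 with FPKM over summed reads for Klf3 (D_MgHCF against D_DXZ). Leaving out a library gave -0.227 to 0.134 for Klf7 (D_MgHCF against Unt), and -0.0727 to 0.207 for Klf9 and -0.143 to 0.143 for Klf10 (D_DXZ against DOX). The cause was not tested.

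Counts of members called moved for D_DXZ against Unt to 4 (quantile) and 3 (adjusted p and 2-fold), for D_MgHCF against Unt to 4 (TPM) and 2 (2-fold), for D_DXZ against DOX to 5 (unadjusted p), and for D_MgHCF against D_DXZ to 5 (quantile) and 3 (2-fold). Leaving out a library gave 7 to 9 for DOX against Unt, 6 to 8 for D_DXZ against Unt, 4 to 7 for D_MgHCF against Unt (4 without Unt replicate 1 or Unt replicate 2), 0 for D_DXZ against DOX, 9 for D_MgHCF against DOX and 7 to 9 for D_MgHCF against D_DXZ. The count at an unadjusted p under 0.05 for D_DXZ against DOX, an alternative chosen after seeing the data, was 3 when only those groups were fitted and 3 to 5 with a library left out.

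Whether replicate numbers pair the samples was not settled. Of 18 same-number correlations, 2 were over 0.1 (range -0.31 to 0.31). Each library was also set against the 3 libraries of each other group. In 18 of these 36 cases it correlated best with its own number. With the replicate number as a block, 7, 7, 0, 9 and 8 members were called for DOX and D_DXZ against Unt, D_DXZ and D_MgHCF against DOX and D_MgHCF against D_DXZ, and 6 in place of 7 for D_MgHCF against Unt, where Klf2 reached an adjusted p of 0.0560. Depth limits Klf2 most, with 15 reads in all 3 DOX libraries.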

Other observations

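Genes known as KLF targets did not move as a single group. Of 12, 6 rose and 1 fell under DOX against Unt, and 3 rose and 6 fell for D_MgHCF against DOX, by limma at an adjusted p under 0.05. Over all genes tested the shares were 18.6% higher and 19.9% lower under DOX, and 31.4% higher and 20.1% lower for D_MgHCF against DOX. Ccnd1, the cyclin of early G1, had a mean of 50.6 ± 7.50 FPKM in Unt, 235 ± 36.1 in DOX, 166 ± 18.3 in D_DXZ and 19.3 ± 4.85 in D_MgHCF (SD, n = 3). Its log2 change was 2.19 under DOX (SE 0.18, limma adjusted p = 1.41e-05) and -3.55 for D_MgHCF against DOX (SE 0.18, limma adjusted p = 2.39e-06). Acta2, the smooth muscle actin, ran from 293 ± 30.3 FPKM in Unt to 1831 ± 304 in DOX and 325 ± 114 in D_MgHCF. Cdkn1a, the cell cycle inhibitor that Klf4 and Klf6 are known to activate, was at 8.31 ± 0.479 FPKM in Unt, 13.1 ± 9.36 in DOX, 4.31 ± 1.26 in D_DXZ and 81.2 ± 38.4 in D_MgHCF. Its log2 change for D_MgHCF against DOX was 2.64 (SE 0.43, limma adjusted p = 0.000491), with a wide spread between the D_MgHCF libraries. Pdgfa was at 5.05 ± 1.39 FPKM in DOX and 17.2 ± 2.40 in D_MgHCF (log2 change 1.60, SE 0.17, limma adjusted p = 3.91e-05).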
